A study of Equus caballus with 45 samples.

Results

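The S100 genes are described here across equine bone marrow mesenchymal stromal cells (MSC) and 3 joint cell types. The list of 8 genes, S100A1, S100A4, S100A6, S100A8, S100A9, S100A10, S100A11 and S100A12, was chosen by gene family and by measured values of these same libraries, since S100A6 and S100A12 were known to be lower in macrophages given medium of STING-activated MSC. Of the 8 genes, 6 were rows of both count tables, out of 20881 rows per table. S100A8 and S100A9, which encode the subunits of calprotectin, were not among the rows listed by symbol and are not analysed here, and 3970 rows of each table carry an Ensembl identifier only.

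MSC of 3 horses (3–4 years old, labelled PC, 99 and 92) were left untreated or given the TLR3 agonist poly I:C or the STING agonist 2′3′-cGAMP for 2 h and collected 24 h later, and a further set of 3 libraries is labelled CpG (12 libraries, 3 per condition). The agonist dose is 10 ng/mL in the sample labels and 10 μg/mL in the design text. Synoviocytes of 1 horse, chondrocytes and blood monocyte-derived macrophages of 1 horse received IL-1β plus TNF-α (20 ng/mL each, with 10 ng/mL in the labels of the macrophages) and MSC conditioned medium (MSC-CM) for 24 h. The abstract of the paper gives the cytokines for 2 h with a wash before MSC-CM, and its methods give no separate time for them. By the paper, MSC-CM was diluted in culture medium, and the cells were then washed and kept 24 h more without it before RNA was collected. The medium came from resting, TLR3-activated (TLR-MSC-CM) or STING-activated MSC (STING-MSC-CM). The labels PC, ORC and AG1 of these libraries are read here as the MSC donors, with 1 library per donor, cell type and medium. Whether ORC and AG1 are other names of the horses 99 and 92 is not stated, and titles of libraries without MSC medium also carry ORC or PC. Each joint cell type also has 1 library with the cytokines alone and 1 with no addition, so 11 libraries per type and 33 in all. The spread between joint cell libraries is therefore between cultures and MSC donors, not between animals that gave the joint cells.

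S100 proteins are small calcium sensors with 2 EF-hand motifs, which bind and regulate partner proteins inside the cell. Several are released by stressed or dying cells and then act as alarmins on receptors such as RAGE (AGER) and TLR4. S100A8, S100A9 and S100A12 are the calgranulins of neutrophils and monocytes and are known as markers of joint inflammation. S100A4, S100A6, S100A10 and S100A11 are common in fibroblasts and other adherent cells, where they bind myosin, annexins and the calcyclin-binding protein, and S100A1 is known best from muscle and cartilage.

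Total counts ran from 23525704 to 54103873 per library, with a median of 31660884 over the 45 libraries. Levels are given as counts per 1000000 counts of a library (CPM), scaled by TMM once for the 12 MSC libraries and once for the 33 joint cell libraries. Levels in MSC and joint cells therefore stand side by side without a test. Counts of 3 or fewer are treated as the floor, which lies at 0.0557–0.129 CPM. Transcript lengths were not used here, so levels are compared between samples for 1 gene and not between genes.

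The labels were set against marker genes. In macrophages all 12 macrophage markers found (of 13 listed) were above the floor, with sums of 8241–12424 CPM, and at least 6 of the 12 were at the floor in every group of the other cell types. The same macrophage libraries held the 5 T cell markers at summed levels of 270–450 CPM, with CD3E at 60.5–122 CPM, against no more than 0.0604 CPM in any library of the other types. Neutrophil markers summed to 272–583 CPM there, of which CSF3R, the G-CSF receptor and a gene that monocytes also express, made up 266–577 CPM and MPO, the neutrophil granule peroxidase, at most 0.638 CPM. The chondrocyte label rests on few markers: COL2A1, the cartilage collagen, did not exceed 0.381 CPM in any chondrocyte library, while ACAN, which encodes aggrecan, lay at 6.05–96.6 CPM against 0.468–3.52 CPM in synoviocytes. The share of these other cells in the values below was not tested.

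The S100 genes differed between the cell types. With resting MSC-CM (n = 3 per type), all 6 members differed between macrophages and synoviocytes (edgeR quasi-likelihood test, adjusted p under 0.05 over all genes), where 71.5% of all genes tested were called. All 6 also differed between macrophages and chondrocytes, where 71.4% of all genes were called. Between chondrocytes and synoviocytes 3 of 6 differed, against 18.1% of all genes. In both comparisons with macrophages, S100A10 and S100A11 were higher in macrophages and S100A1, S100A4, S100A6 and S100A12 were lower. The p-values measure the spread between cultures and not between horses. By the labels the macrophages also had 10 ng/mL of the cytokines and the other types 20 ng/mL, and this dose cannot be told apart from cell type. The resting macrophage libraries entered the choice of S100A6 and S100A12. In bulk RNA, fewer cells of a type and less RNA per cell cannot be told apart.

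**Figure D1:**
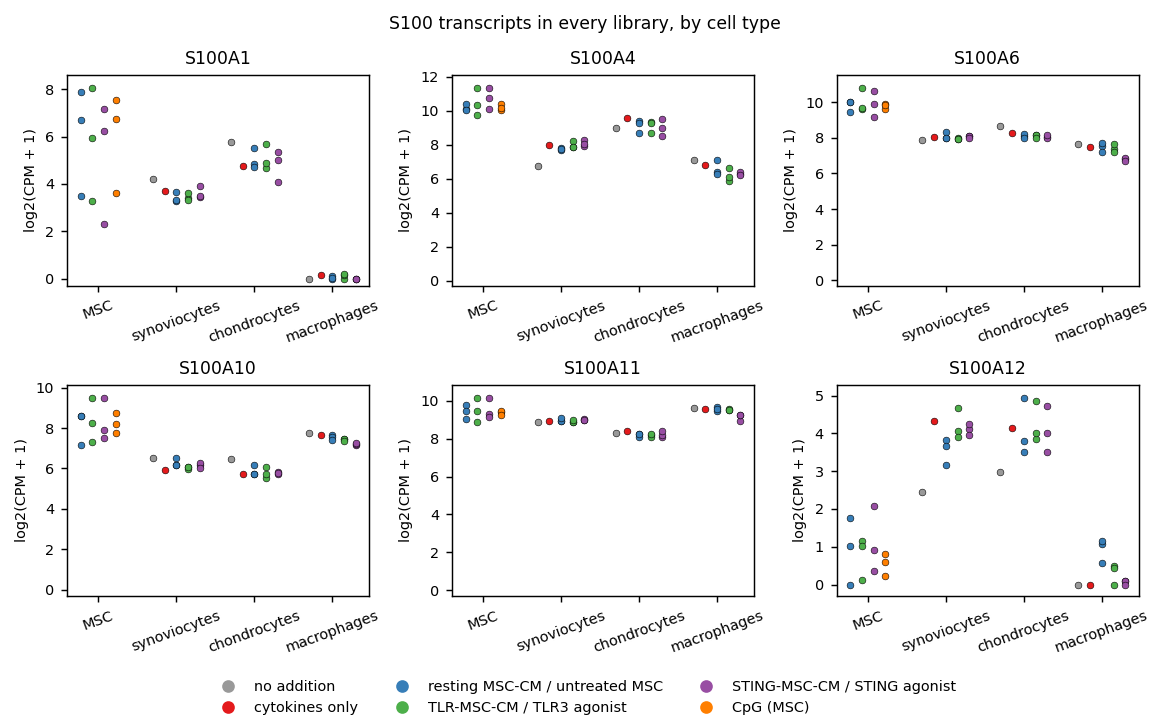
Levels of the 6 S100 genes in all 45 libraries, as log2(CPM + 1), by cell type and coloured by condition; each point is 1 library, and the MSC were scaled apart from the joint cells. S100A1 is near 0 in every macrophage library, and S100A12 is highest in synoviocytes and chondrocytes.

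S100A12, the calgranulin secreted mainly by granulocytes and monocytes in other species, was low in the macrophages and higher in the stromal joint cells. With resting MSC-CM it lay at 0.487, 1.12 and 1.21 CPM in macrophages, for the donors AG1, ORC and PC. The synoviocytes held 13.03, 7.96 and 11.6 CPM and the chondrocytes 10.4, 29.7 and 12.9 CPM in the same order of donors. The macrophage values lay below every value of the other types, by a log2 fold change of −3.58 (SE 0.50, edgeR adjusted p = 0.000127) against synoviocytes and −4.27 (SE 0.50, edgeR adjusted p = 3.86e-05) against chondrocytes. Chondrocytes and synoviocytes overlapped and did not differ beyond their spread (adjusted p = 0.289). In MSC S100A12 ranged from 0 to 3.21 CPM over the 12 libraries.

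S100A1, a regulator of calcium handling and of other S100 proteins, was close to absent in macrophages. No macrophage library held more than 4 counts, and 9 of 11 were at or under the floor. With resting MSC-CM, synoviocytes held 11.6, 8.72 and 9.13 CPM (AG1, ORC and PC) and chondrocytes 27.3, 44.2 and 25.1 CPM. The macrophage level was at least 104-fold lower than in synoviocytes (adjusted p = 8.08e-08) and at least 342-fold lower than in chondrocytes (adjusted p = 1.27e-08), with 3 counts per library as the bound. Chondrocytes exceeded synoviocytes by a log2 fold change of 1.72 (SE 0.25, edgeR adjusted p = 0.000808), with no overlap. S100A13, whose span overlaps that of S100A1 in the RefSeq annotation of another horse assembly (TB-T2T), was also higher in chondrocytes than in synoviocytes (0.69, SE 0.11, edgeR adjusted p = 0.00118), and how the counting split reads between these genes is uncertain.

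S100A4, which binds non-muscle myosin and is a marker of fibroblasts and motile cells, was ordered chondrocytes over synoviocytes over macrophages. Its resting-medium levels were 673, 418 and 615 CPM in chondrocytes (AG1, ORC and PC), 225, 203 and 212 CPM in synoviocytes and 82.8, 135 and 77.0 CPM in macrophages. No neighbours in this order overlapped. The log2 fold change was 1.42 (SE 0.23, edgeR adjusted p = 0.00181) for chondrocytes against synoviocytes and −1.14 (SE 0.23, edgeR adjusted p = 0.00106) for macrophages against synoviocytes. Against chondrocytes the macrophages differed by −2.55 (SE 0.24, edgeR adjusted p = 3.36e-06).

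S100A6, also called calcyclin, lay at 277 ± 41.6 CPM in synoviocytes, 276 ± 22.6 CPM in chondrocytes and 180 ± 29.1 CPM in macrophages with resting MSC-CM (SD, n = 3). The chondrocytes and synoviocytes did not differ beyond their spread (adjusted p close to 1). Macrophages were lower than synoviocytes by −0.64 on the log2 scale (SE 0.14, edgeR adjusted p = 0.00205) and lower than chondrocytes by −0.63 (SE 0.14, edgeR adjusted p = 0.00211).

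S100A10 and S100A11, the partners of annexin A2 and annexin A1, were the members with higher levels in macrophages. S100A10 lay at 184 ± 14.9 CPM in macrophages, 77.4 ± 12.8 CPM in synoviocytes and 58.3 ± 11.6 CPM in chondrocytes (SD, n = 3). The macrophages were higher by a log2 fold change of 1.23 (SE 0.16, edgeR adjusted p = 2.72e-05) against synoviocytes and 1.64 (SE 0.16, edgeR adjusted p = 2.86e-06) against chondrocytes. Chondrocytes and synoviocytes overlapped in S100A10 (adjusted p = 0.0958), while with the MSC donor as a replicate block chondrocytes were called lower by −0.41 (SE 0.11, edgeR adjusted p = 0.0391). S100A11 lay at 761 ± 52.8 CPM in macrophages, 502 ± 29.3 CPM in synoviocytes and 292 ± 15.6 CPM in chondrocytes, with no overlap between any pair of types. Its log2 fold change was 0.59 (SE 0.10, edgeR adjusted p = 0.000381) for macrophages against synoviocytes, 1.37 (SE 0.10, edgeR adjusted p = 4.69e-07) against chondrocytes, and −0.78 (SE 0.10, edgeR adjusted p = 0.000473) for chondrocytes against synoviocytes.

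Other genes with S100 names and the partners of S100 proteins were counted in the same comparisons, in which 71.5% and 71.4% of all genes were called between macrophages and either other type and 18.1% between chondrocytes and synoviocytes, so nothing is read from these counts about the lists. A list of 14 further genes held S100PBP, which encodes a binding protein of S100P and no S100 protein, beside S100 genes, and of the list 12 were in the tables and 8 were tested. Between macrophages and synoviocytes 1 was called higher and 4 lower, and between macrophages and chondrocytes 1 higher and 5 lower. The gene called higher in both was S100P, a calcium sensor known from epithelia and myeloid cells, which lay at 685–1383 CPM over the 11 macrophage libraries and at no more than 0.302 CPM in any synoviocyte or chondrocyte library. S100A16, a family member known for wide expression in adherent cells, showed the opposite pattern, with 0–0.1 CPM in macrophages, 32.4–39.2 CPM in synoviocytes and 39.6–51.4 CPM in chondrocytes. S100A3 was at 0 CPM with resting MSC-CM in macrophages, at least 7.45-fold lower than in synoviocytes and at least 7.33-fold lower than in chondrocytes.

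Of the 8 intracellular partners, 2 were higher and 3 lower in macrophages than in synoviocytes (71.5% of all genes called). Against chondrocytes 3 were higher and 2 lower in macrophages (71.4% of all genes called). MYH9, the heavy chain of the myosin that S100A4 binds, was lower in macrophages than in synoviocytes by −1.93 on the log2 scale (SE 0.18) and than in chondrocytes by −1.50 (SE 0.17). AHNAK, which binds the complex of S100A10 and annexin A2, was higher by 1.44 (SE 0.15) and 1.30 (SE 0.15) in that order, and ANXA5 by 1.16 (SE 0.12) and 1.67 (SE 0.12). Between chondrocytes and synoviocytes 3 partners were called, against 18.1% of all genes, all lower in chondrocytes: ANXA1 by −0.64 (SE 0.14), ANXA2 by −0.59 (SE 0.18) and ANXA5 by −0.51 (SE 0.12).

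Of 7 receptors and adaptors tested, 5 were higher and 1 lower in macrophages in each comparison (71.5% and 71.4% of all genes called), and none was called between chondrocytes and synoviocytes. CD36, a scavenger receptor that binds S100 proteins, was at 66.6–330 CPM in macrophages and at 0–0.223 CPM in the other joint cells. CD14, a co-receptor of TLR4, was at 15.96–32.4 CPM and LY96, which encodes MD-2, at 26.9–39.9 CPM in macrophages, and both were called higher there than in either other type. AGER, the gene of RAGE, stayed between 0.389 and 1.59 CPM in all 45 libraries. TLR4 was listed at 0 counts in 44 libraries and at 1 count in the other one, macrophages included, so it is given here only as listed at 0.

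Among 16 other alarmins and damage signals, 7 were higher and 7 lower in macrophages than in either other type, against the same 71.5% and 71.4% of all genes. LGALS3, the gene of galectin-3, lay at 3863–6383 CPM in macrophages against 34.7–65.9 CPM in synoviocytes and 53.0–119 CPM in chondrocytes. SAA1, an acute phase protein made by stromal cells under IL-1, lay at 0.073–0.56 CPM in macrophages, 197–3884 CPM in synoviocytes and 1716–8167 CPM in chondrocytes. IL1A lay at 9.64–44.9 CPM in macrophages and at most 0.223 CPM in synoviocytes, and the chondrocytes, at 0–13.6 CPM, overlapped the macrophages. Between chondrocytes and synoviocytes SAA1 was higher by 1.62 (SE 0.40) and LGALS3 by 1.19 (SE 0.19), and IL33, a nuclear alarmin, was at 0.0744 against 1.44 CPM.

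The cytokines alone can be read only from single libraries. In synoviocytes S100A12 lay at 4.45 CPM with no addition and at 19.1 CPM with IL-1β plus TNF-α, a 4.29-fold difference, and S100A4 at 106 and 257 CPM, a 2.42-fold difference. S100A1 (17.2 against 11.9 CPM) and S100A10 (91.2 against 60.0 CPM) were lower with the cytokines. In chondrocytes the same genes differed in the same directions: S100A12 from 6.82 to 16.7 CPM, S100A4 from 506 to 762 CPM, S100A1 from 54.3 to 26.2 CPM and S100A10 from 86.2 to 51.1 CPM. S100A6 and S100A11 differed by 1.3-fold or less in both types. In macrophages S100A4, S100A6, S100A10 and S100A11 were at 0.831–0.969 of the level without cytokines, and S100A12 had 0 counts in both libraries. Past 1.5-fold in either direction lay 17.6% of genes in synoviocytes, 27.3% in chondrocytes and 8.46% in macrophages. These pairs have no replicate check, and in synoviocytes the title of the cytokine library carries PC and that of the library without addition ORC.

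Macrophages given STING-MSC-CM are the comparison on which S100A6 and S100A12 were selected, so its values are a description without a test. S100A6 lay at 185, 206 and 148 CPM with resting MSC-CM (AG1, ORC and PC) and at 111, 117 and 105 CPM with STING-MSC-CM. Every STING value was below every resting value, with a log2 fold change of −0.69 (SE 0.14). The library without addition held 204 CPM and that with cytokines alone 177 CPM, so the 3 STING libraries were also the lowest of the 11.

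S100A10 and S100A11 showed the same order. S100A10 was at 198, 185 and 168 CPM with resting and at 140, 145 and 150 CPM with STING medium (−0.33, SE 0.09). S100A11 was at 713, 818 and 753 CPM and at 486, 598 and 615 CPM (−0.42, SE 0.11). The 3 STING libraries were the lowest of the 11 for both genes, as for S100A6. Of the 4 members not named in the choice, S100A10 and S100A11 did not overlap, and of all genes 9.83% did not, from which nothing is read, since S100A6 and S100A12 were chosen on the same comparison. S100A4 overlapped, at 82.8, 135 and 77.0 CPM with resting and 76.2, 84.8 and 72.2 CPM with STING medium.

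**Figure D2:**
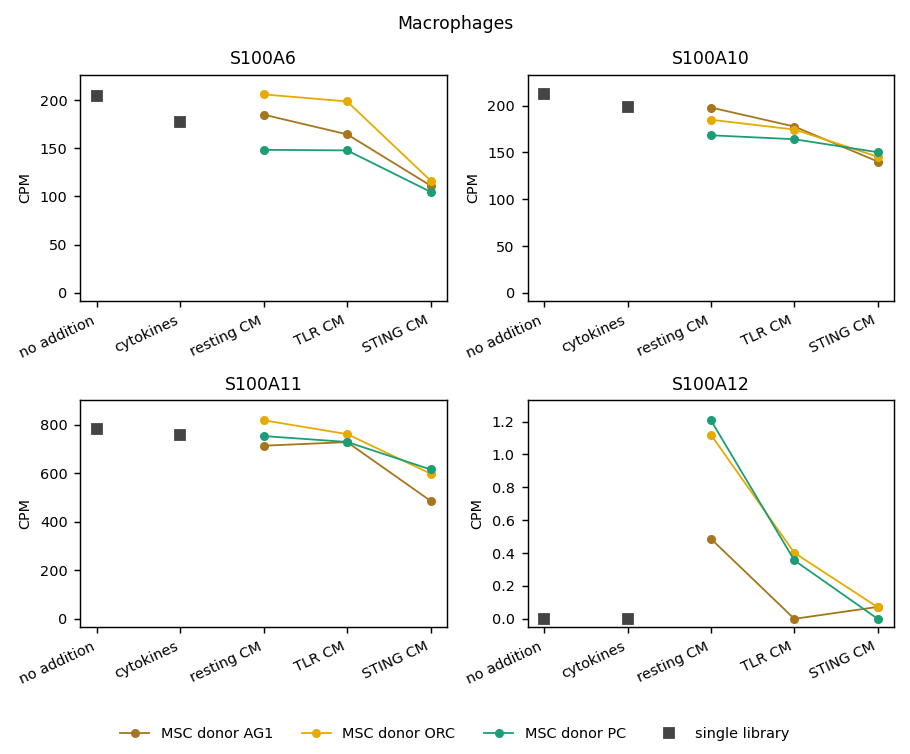
CPM of 4 S100 genes in the 11 macrophage libraries; lines join the media of 1 MSC donor and squares are the single libraries without MSC medium. For S100A6, S100A10 and S100A11 the 3 STING-MSC-CM points lie below all others, and S100A12 is above 0.4 CPM in every resting-medium library.

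S100A12 in macrophages rested on few counts. The 2 libraries without MSC medium had 0 counts, which allows up to 0.119 CPM with no addition and 0.124 CPM with the cytokines. With resting MSC-CM it had 20, 26 and 45 counts (AG1, ORC and PC), at least 7.59-fold more than with the cytokines alone. TLR-MSC-CM libraries had 0, 16 and 11 counts and STING-MSC-CM libraries 2, 2 and 0. The STING group was thus at the floor and at least 8.91-fold lower than the resting group. The 6 synoviocyte markers found (of 7 listed) summed to 77.7–88.7 CPM with resting, 33.0–88.2 CPM with TLR and 46.5–69.5 CPM with STING medium, so their resting and STING sums did not overlap, with resting higher. The sum was 65.5 CPM with no addition, where CDH11 and PDGFRA were at the floor, and 50.0 CPM with the cytokines, where HAS1 was too. PDPN, the gene of podoplanin, made up most of it, at 70.4, 78.2 and 83.1 CPM with resting (AG1, ORC and PC), 27.9, 74.5 and 59.5 CPM with TLR and 41.8, 63.7 and 43.3 CPM with STING medium. COL1A1, a fibroblast collagen on the same list, was at 2.77, 4.22 and 2.12 CPM with resting, 0.193, 8.08 and 3.59 CPM with TLR and 4.80, 2.94 and 1.85 CPM with STING medium. The monocyte markers summed to 498–1401 CPM with resting, 202–1167 CPM with TLR and 566–2104 CPM with STING medium, and the neutrophil markers to 286–583, 434–533 and 397–553 CPM. The T cell markers summed to 284–328, 296–450 and 270–299 CPM. The part of such cells in the S100 values was not tested.

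TLR-MSC-CM was compared with resting MSC-CM by a test, although the resting libraries are shared with the comparison above. No member was called in macrophages, and 0% of all genes were called. At an unadjusted p under 0.05 there was 1 member, S100A12, against 2.1% of all genes. It did not overlap, with a log2 fold change of −1.89 (SE 0.85, edgeR adjusted p = 0.998), where 5.47% of all genes did not overlap. The choice of S100A12 used these resting libraries, so nothing is read from its unadjusted p or its lack of overlap. Without the TLR library of AG1, which held 0 counts, the value was −1.30. With the donor as a replicate block, S100A4 (−0.38, SE 0.12, edgeR adjusted p = 0.868) joined S100A12 under an unadjusted 0.05, as did 5.58% of all genes. S100A6 was at 164, 199 and 148 CPM with TLR-MSC-CM (AG1, ORC and PC), overlapping the resting values, with a log2 fold change of −0.08 (SE 0.14). That sign turned to 0.019 without the resting library of ORC.

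Between the 2 activated media the macrophages differed in 3 of 6 members without overlap, S100A6, S100A10 and S100A11, and 12.4% of all genes did not overlap, from which again nothing is read. S100A6 was lower with STING than with TLR medium by −0.61 on the log2 scale (SE 0.14), S100A10 by −0.24 (SE 0.09) and S100A11 by −0.38 (SE 0.11). All 3 were lower with STING medium for each of the 3 donors. S100A12 was at the floor with STING medium and at 0–0.402 CPM with TLR medium, with overlap (−2.30, SE 1.19). These too are descriptions, since the STING libraries entered the choice of genes. S100P overlapped throughout, at 800–1383 CPM with resting, 871–1268 CPM with TLR and 685–1179 CPM with STING medium.

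In synoviocytes S100A12 and S100A4 were higher with either activated medium than with resting medium, for each of the 3 donors, and did not pass the adjusted test. With TLR-MSC-CM, S100A12 was at 15.6, 24.4 and 13.9 CPM (AG1, ORC and PC) against 13.03, 7.96 and 11.6 CPM with resting medium, higher without overlap by 0.70 (SE 0.24, edgeR adjusted p = 0.545). S100A4 was at 229.8, 294 and 229.7 CPM against 225, 203 and 212 CPM, higher by 0.22 (SE 0.11, edgeR adjusted p = 0.545). S100A10 was at 66.0, 61.3 and 65.6 CPM against 70.0, 92.2 and 70.0 CPM, lower by −0.28 (SE 0.10, edgeR adjusted p = 0.545). None passed the threshold after adjustment, and 0% of all genes did, while DESeq2 called 2 genes, neither of them a member. In the other tested comparisons of media DESeq2 called 0 genes. Of the 6 members 3 did not overlap, where 11.7% of all genes did not, and 2 had an unadjusted p under 0.05, where 9.07% of all genes had one.

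The libraries of donor ORC carried much of these differences. Without the TLR library of ORC the value of S100A12 was 0.42 and that of S100A4 was 0.10, and without its resting library the value of S100A10 was −0.13. With the donor as a replicate block 3 members had an unadjusted p under 0.05, S100A4, S100A10 and S100A12 (edgeR, each adjusted p = 0.637), as had 7.14% of all genes.

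STING-MSC-CM gave synoviocyte levels of 16.4, 17.8 and 14.6 CPM for S100A12 (AG1, ORC and PC), all above the resting values, by 0.57 (SE 0.24, edgeR adjusted p = 0.676). S100A4 was at 240, 310 and 260 CPM, also all above, by 0.33 (SE 0.11, edgeR adjusted p = 0.676). Again no member and 0% of all genes passed. These 2 members were the ones without overlap, against 14.2% of all genes, and the ones with an unadjusted p under 0.05, against 6.67% of all genes. With the replicate block S100A4 alone kept an unadjusted p under 0.05 (edgeR adjusted p = 0.756), against 5.35% of all genes. Of the 6 libraries with activated medium, 1 held more S100A12 than the 19.1 CPM of the cytokine-only library.

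**Figure D3:**
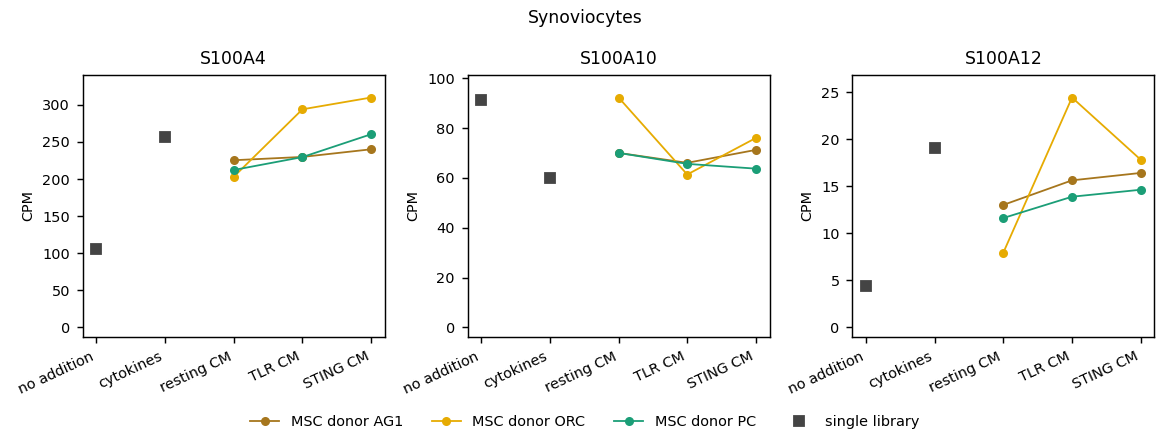
CPM of S100A4, S100A10 and S100A12 in the 11 synoviocyte libraries; lines join the media of 1 MSC donor and squares are the single libraries without MSC medium. S100A4 and S100A12 lie higher with either activated medium than with resting medium for each of the 3 donors, and the ORC donor shows the widest differences.

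Between STING-MSC-CM and TLR-MSC-CM no member was called in synoviocytes, nor any gene (0%), and no member had an unadjusted p under 0.05 (1.93% of all genes). S100A6 did not overlap, at 279, 273 and 255 CPM with STING and 251, 245 and 247 CPM with TLR medium (0.13, SE 0.09, edgeR adjusted p close to 1), where 7.26% of all genes did not overlap.

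Chondrocytes showed no member without overlap in any of the 3 comparisons of media. The share of all genes without overlap was 3.45% for TLR against resting, 3.71% for STING against resting and 3.29% for STING against TLR medium. Unadjusted p under 0.05 was reached by 0 members and by 0.517%, 0.79% and 0.727% of all genes in the same order, and adjusted p under 0.05 by 0% in each. Both the overlap and this fit left the MSC donor out. With the donor as a replicate block 0 members had an unadjusted p under 0.05, against 2.35%, 3.88% and 4.15% of all genes in that order. For S100A12 with TLR medium the SE was 0.50 without the block and 0.10 with it. S100A12, S100A1 and S100A4 stood apart by MSC donor in chondrocytes. S100A12 was at 29.7, 28.0 and 25.6 CPM with the resting, TLR and STING media of ORC, at 12.9, 15.1 and 15.2 CPM with those of PC and at 10.4, 13.4 and 10.3 CPM with those of AG1. S100A1 was likewise at 40.1–50.7 CPM with the media of ORC and at 15.9–31.1 CPM with the others, and S100A4 was at 373–418 CPM with ORC and at 512–725 CPM with the others. S100A6 at 253–298 CPM, S100A10 at 45.5–71.7 CPM and S100A11 at 271–335 CPM varied less over these 9 libraries.

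**Figure D4:**
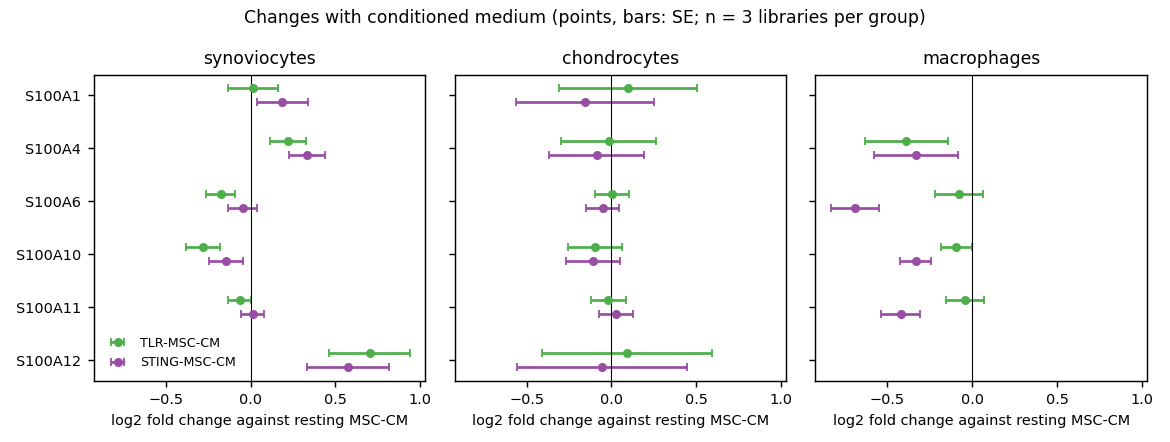
Log2 fold change of each S100 gene against resting medium, for the medium of TLR3-activated and of STING-activated MSC, in the 3 joint cell types, with bars of 1 SE from the edgeR fit (n = 3 per group). No value passed the adjusted threshold where tested. S100A1 and S100A12 of macrophages are left out because their counts reach the floor, and the macrophage STING values carry no test.

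The change with medium was also compared between chondrocytes and synoviocytes. No member had an interaction past the adjusted or the unadjusted threshold. For TLR-MSC-CM 0% of all genes were called and 1.87% had an unadjusted p under 0.05, and for STING-MSC-CM 0% and 1.71%. For S100A12 the difference of the log2 changes was −0.61 (SE 0.60) with TLR and −0.63 (SE 0.60) with STING medium. The MSC donor was left out of this fit, in which a difference of the size seen in synoviocytes could not be resolved. With the donor as a replicate block, S100A12 in chondrocytes changed by 0.15 (SE 0.10) with TLR and −0.01 (SE 0.10) with STING medium. In synoviocytes the blocked changes were 0.68 (SE 0.26) and 0.56 (SE 0.26).

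The other lists gave 0 called genes in every tested comparison of media. In synoviocytes with TLR-MSC-CM, 6 of 16 other alarmins had an unadjusted p under 0.05, 1 of them higher, as did 3 of 8 partners, none of them higher, and 2 of 8 genes of the list with S100 names, where 9.07% of all genes had one. In the remaining tested comparisons of media no list had more than 2 such genes.

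In MSC the levels differed widely between the 3 horses. S100A1 lay at 144–266 CPM in the 4 libraries of donor 99, at 59.8–105 CPM in those of PC and at 4.00–11.3 CPM in those of 92, with no overlap between donors. S100A10 lay at 384–713 CPM in donor 99, 241–384 CPM in 92 and 141–219 CPM in PC. S100A12 was at 0–0.284 CPM in PC and at 0.504–3.21 CPM in the others.

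No member was called with either agonist in MSC, and 0% of all genes were called with the TLR3 agonist, the STING agonist, between them, or with CpG (edgeR). DESeq2 called no member either, and over all genes it called 52 with the TLR3 agonist, 95 with the STING agonist, 1 between them and 0 with CpG. No member had an unadjusted p under 0.05, against 1.13% of all genes for the TLR3 agonist, 2.06% for the STING agonist, 0.208% between them and 0.278% for CpG. No member was without overlap, against 1.8%, 5.93%, 1.86% and 2.38% of all genes in the same order. The edgeR fit left the donor out, so the differences between the horses stayed in its spread. For S100A1 with the STING agonist its SE was 1.46, against 0.25 with the donor as a replicate block.

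Within donors the members differed in direction. S100A4 was at 1363, 2611 and 2595 CPM in donor 99 (untreated, TLR3 and STING agonist), at 1073, 1299 and 1742 CPM in PC and at 1129, 881 and 1092 CPM in 92. S100A6 was at 1018, 1780 and 1597 CPM in 99, at 706, 830 and 966 CPM in PC and at 1043, 791 and 570 CPM in 92. S100A10 and S100A11 were 1.84-fold and 1.59-fold higher with the TLR3 agonist in donor 99 but at 0.78 and 0.813 of the untreated level in donor 92. All 4 genes were thus higher in 99 and lower in 92 with either agonist.

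S100A1 was lower with the STING agonist in each of the 3 donors, at 0.387, 0.605 and 0.739 of the untreated level in 92, 99 and PC. With the donor as a replicate block its log2 fold change was −0.75 (SE 0.25, edgeR adjusted p = 0.386) and that of S100A4 was 0.53 (SE 0.22, edgeR adjusted p = 0.494), the 2 members with an unadjusted p under 0.05 in that fit, where 9.58% of all genes had one. With CpG every S100A4 value stayed within 1081–1379 CPM and S100A11 within 604–705 CPM.

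**Figure D5:**
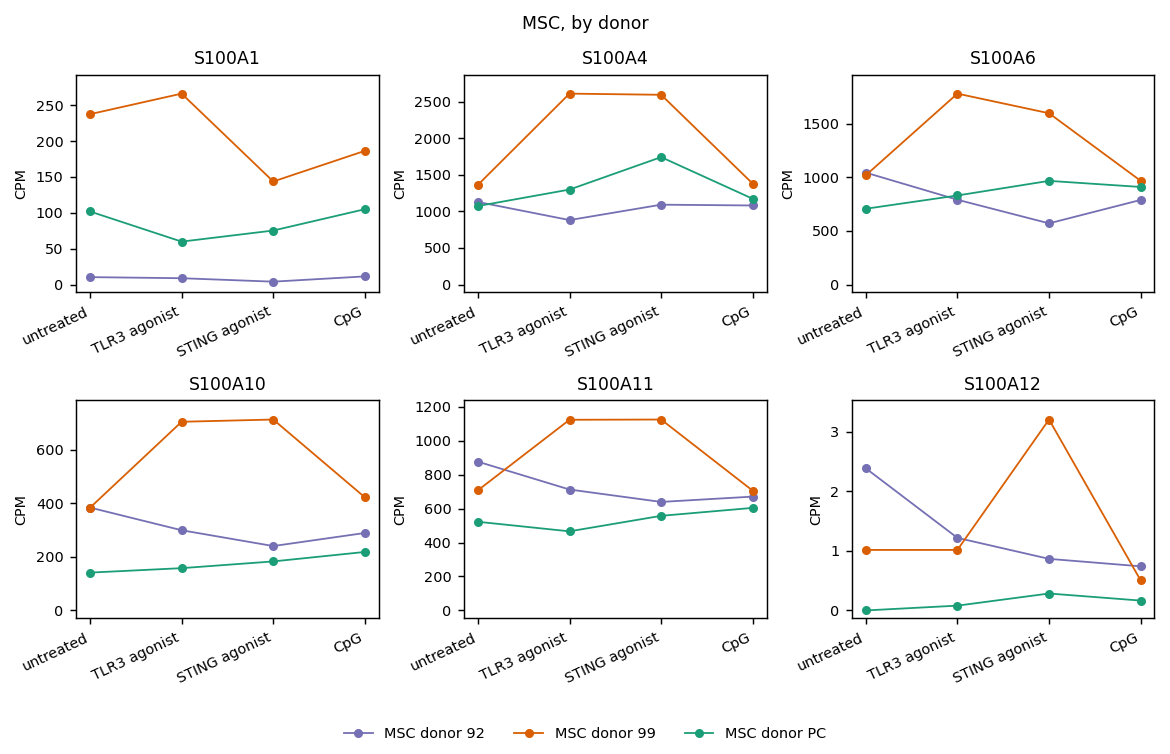
CPM of the 6 S100 genes in the 12 MSC libraries, with 1 line per donor across the untreated, TLR3 agonist, STING agonist and CpG conditions. Donor 99 lies higher with both agonists for S100A4, S100A6, S100A10 and S100A11, donor 92 lies lower, and the donors are ordered 99, PC, 92 for S100A1 in every condition.

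Across the 11 macrophage libraries the Pearson r of S100A6 on log2 CPM was 0.892 with S100A10 and 0.852 with S100A11. It was 0.613 with S100A4, 0.345 with S100A12 and 0.25 with S100P. The 11 include the 3 STING-MSC-CM libraries used in the choice of S100A6, which were the lowest for S100A6, S100A10 and S100A11. The r values of S100A6 here and below are not separate from that choice, and nothing is read from their order. The genes most like S100A6 were NADSYN1 (0.964), an enzyme of NAD synthesis, NSMCE2 (0.95), a SUMO ligase of the SMC complex, and PLIN3 (0.943), a lipid droplet protein. Those most like S100A12 were GNPDA2 (0.891), ZNF395 (0.877) and PRKACA (0.867), the catalytic subunit of protein kinase A. S100A12 itself had at most 45 counts, with 6 of 11 libraries at the floor. Its r values thus rest on few counts, and the resting and STING libraries entered its choice. Each was picked as the highest of 11525 genes, and the libraries share the cells of 1 horse and the media of 3 donors, so these values are a description.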

How the data were processed

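Adapters were removed by the authors with Cutadapt 1.12, alignment to the EquCab3.0 horse genome used STAR, and protein coding genes of the Ensembl annotation were counted with HTSeq 0.11.0. The deposited values are whole-number counts per gene without normalization, in 2 tables (12 MSC and 33 joint cell libraries). Whether counting used strand was not given in the sources used here. The member list and all gene lists were chosen with earlier results of these data known.

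Genes with at least 10 counts over a fit were tested with edgeR 4.0.16 in R 4.3.3 (TMM, quasi-likelihood, robust) within a cell type, or across types with resting MSC-CM. P-values were adjusted by Benjamini-Hochberg over all genes tested, and SE is the log2 fold change over the root of F. CPM are TMM-scaled per table. DESeq2 1.42.0, library totals, no count filter, only the groups compared, the donor as a replicate block and leaving out each library were alternatives. The fits recovered known changes in data simulated for TLR against resting medium in macrophages and for macrophages against synoviocytes. The planted log2 changes were 1 to 3 in either direction, in genes over 1 CPM and without a donor effect. Smaller changes, lower levels and paired donors were not covered. Fold changes are given for members with an adjusted p under 0.05 or groups that do not overlap, and for S100A6 and S100A12 in macrophages. Those of S100A12 in the comparison of cell type changes were added after their values were seen. So were those of S100A1, S100A4 and S100A12 under the block. Genes of other lists are the 3 per list with the largest called change between cell types; AGER, TLR4, S100A13, COL1A1 and PDPN were added likewise. Likeness is Pearson's r of log2(CPM + 1) over genes with a mean of at least 1 CPM.

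Same-donor libraries paired: the MSC come from the same horses, and the median correlation of deviations from group means was 0.821 in MSC, 0.442 in macrophages, 0.676 in chondrocytes and 0.0663 in synoviocytes (different donors −0.465, −0.235, −0.655 and −0.0236). RefSeq TB-T2T was used for gene names and neighbours only, where 6 of 6 members matched; no sequences were used here.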

Additional observations from a re-analysis of the deposited data

Results flagged for a closer look

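In 2 genes the values with activated medium, set against resting medium of the same MSC donor, differed in opposite directions in synoviocytes and macrophages for each of the 3 donors. S100A4 was higher in synoviocytes with TLR-MSC-CM (log2 fold change 0.22) and lower in macrophages (−0.39), and with STING-MSC-CM the values were 0.33 and −0.33. S100A12 was higher in synoviocytes with TLR-MSC-CM (0.70) and lower in macrophages (−1.89). With STING-MSC-CM the values were 0.57 and −4.20, where the macrophage value is fitted against a group at the floor and is no bound; the bound is the at least 8.91-fold difference of the group means. The differences between the cell types were not tested, since the macrophage values entered the choice of S100A12, and no change passed the adjusted threshold in a cell type where it was tested. S100A4 overlapped between the media in macrophages, and in synoviocytes with TLR-MSC-CM of donor AG1 it was at 1.02-fold of its resting level. The direction of S100A12 in macrophages with STING-MSC-CM was known when the gene was chosen. Both activated media were set against the same resting libraries, so their like directions are not separate findings.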

How the results depend on the processing

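No alternative called a member in any tested comparison of media or agonists, DESeq2 and the replicate block included, and macrophages differed from either other type in all 6 members under each of the 13 alternatives. Between chondrocytes and synoviocytes 3 to 4 members were called. Among the alternative fold changes, 390 kept their direction and side of the threshold or stayed within the replicate spread, 11 moved and 2 reversed: S100A6 in macrophages with TLR-MSC-CM ranged from −0.21 to 0.019 when 1 library was left out. With the MSC donor as a replicate block 2 members had an unadjusted p under 0.05 for the STING agonist in MSC (0 without it), 3 for TLR-MSC-CM (2) and 1 for STING-MSC-CM (2) in synoviocytes and 2 for TLR-MSC-CM (1) in macrophages. It called 4 members rather than 3 between chondrocytes and synoviocytes, where S100A10 joined (−0.41, edgeR adjusted p = 0.0391), and changed no other member count.

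Over all genes, where the main test called 0, DESeq2 called 52 for the TLR3 agonist, 95 for the STING agonist and 1 between them in MSC, and 2 for TLR-MSC-CM in synoviocytes. Fitting only the groups compared gave 53 for the STING agonist, leaving out the TLR3 library of donor 92 gave 48, and the block gave 2 there, 1 for STING-MSC-CM and 2 for STING against TLR medium in chondrocytes. Between chondrocytes and synoviocytes 1765–3800 genes were called against 2819. With 3 libraries per group and 1 horse per joint cell type, the causes of these shifts were not tested. S100A12 in macrophages is limited by counts of at most 45.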
